A study of Mus musculus with 8 samples.

Results

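Integrins are cell surface receptors made of 1 alpha and 1 beta chain that bind matrix proteins and counter-receptors on other cells. The leukocyte integrins are those carried mainly by white blood cells. They share the beta2 chain (Itgb2, CD18), which pairs with the alpha chains Itgal (CD11a, in LFA-1), Itgam (CD11b, in Mac-1) and Itgax (CD11c), or they combine the alpha4 chain (Itga4, CD49d) with the beta7 chain (Itgb7). Itga4 also pairs with the widely expressed beta1 chain. Cells of the blood lineages use these receptors to stop on endothelium, to enter tissue and to take up opsonised particles, and Itgam and Itgax serve as markers of macrophages and dendritic cells. The 6 genes were chosen by name and are measured by 11 probes of the array, out of 34797 gene names and 55681 probes in all: 3 probes each for Itgam and Itgal, 2 for Itga4 and 1 each for Itgax, Itgb2 and Itgb7. Every probe is described on its own, because the Itgam probes disagree.

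RNA came from hearts of C57BL/6 mice and was hybridised to 8 one-colour arrays, 2 per group. Passage-8 cells descend from sorted c-kit+/CD45+ cells and were taken at passage 8. CD45-negative cells are primary c-kit+/CD45- cells, sorted from cultured explants of left atrial appendage after strong digestion (0.25% trypsin). CD45-positive cells are primary c-kit+/CD45+ cells from such cultures after weak digestion (0.05% trypsin), so sort and digestion cannot be told apart between these 2 groups. The mice behind the cell groups were 8 to 12 weeks old. The control, biopsied wall of the left ventricle from 12-week-old mice, differs from the cells in heart chamber, in culture and in the reagent used to extract RNA. Nothing in the labels says whether the 2 samples of a group came from separate animals or cultures, so the p-values below measure the spread between these arrays only. In bulk RNA, fewer cells of a type and less RNA per cell cannot be told apart.

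The 3 Itgam probes are shown because the result for this gene depends on which one is read. Coordinates are those of the files in mouse build mm9, and probes are named by the base of the transcript at which they start, as the files give it. Itgam probe 270 lies at chr7:135212140-135212199, probe 3410 at chr7:135260275-135260334 and probe 4431 at chr7:135261755-135261814, all on the plus strand. The capitals in probe 4431, of which the first 30 of 60 bases are given, mark an unbroken run of 20 bases of the dinucleotide CA.
Itgam probe 270: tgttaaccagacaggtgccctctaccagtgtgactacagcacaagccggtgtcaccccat
Itgam probe 3410: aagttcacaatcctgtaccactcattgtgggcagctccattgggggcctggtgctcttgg
Itgam probe 4431, first 30 bases: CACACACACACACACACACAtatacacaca

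The Itgax probe lies at chr7:135294052-135294111, Itgal probe 3637 at chr7:134477064-134477123, Itgal probe 3727 at chr7:134477160-134477219 and Itgal probe 4428 at chr7:134474711-134474767. Itgam, Itgax and Itgal thus share a chromosome. The Itgb2 probe lies at chr10:77027978-77028037, the Itgb7 probe at chr15:102046450-102046509, Itga4 probe 2292 at chr2:79153985-79155115 and Itga4 probe 9754 at chr2:79173193-79173252. Itga4 probe 2292 covers 1131 bases of genome with its 60 bases, so it crosses at least 1 intron. Itgal probe 4428 was designed to the cDNA clone AK154115 and not to a RefSeq transcript of Itgal. Exon and UTR annotation of mm9 was not used here.

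Signals are given as log2 of the processed spot intensity minus the array's 75th percentile, so 0 is that percentile and a difference of 1 is a doubling of signal. The 75th percentile ran from 426 to 976 intensity units over the 8 arrays, and 51.5% to 69.9% of spots were well above background. Only probes that cleared background on both arrays of either group entered a comparison. A probe passed at an adjusted p under 0.05 with a log2 difference of at least 1 (limma over all probes tested, Benjamini-Hochberg), and ± after a log2 difference is its standard error. The replicate SD pooled over 24229 probes was 0.15 in passage-8 cells, 0.54 in CD45-negative cells, 0.18 in CD45-positive cells and 0.36 in ventricle. The CD45-negative arrays thus stood apart in spread from the others. Where 1 array of a group is left out below, the array that remains adds no spread of its own to the fit. It is assumed to vary like the other groups, so a p-value or call there does not measure the spread of that group.

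The sort gene Ptprc, which encodes CD45, read -5.57 and -5.18 in passage-8 cells, -5.52 and -3.34 in CD45-negative cells, 2.04 and 1.93 in CD45-positive cells, against -2.33 and -2.89 in ventricle. It followed the sort labels, with the CD45-positive arrays above all others. Kit, which encodes c-kit, read -5.68 and -5.55 in passage-8 cells, -6.34 and -1.55 in CD45-negative cells, -3.57 and -3.33 in CD45-positive cells, against -1.48 and -2.48 in ventricle. The groups sorted for c-kit protein were thus no higher than ventricle in mean Kit signal, and 1 of 2 CD45-negative arrays was not well above background for it. Kit passed in none of the 6 comparisons (limma).

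Itgb2, the chain common to LFA-1, Mac-1 and CD11c/CD18, was high in CD45-positive cells alone. It read -0.79 and -0.63 in passage-8 cells, -2.53 and -0.14 in CD45-negative cells, 4.63 and 4.86 in CD45-positive cells, against -1.28 and -1.68 in ventricle. The CD45-positive arrays did not overlap with any other group, while the 2 CD45-negative arrays spanned both of the lower groups. Compared with CD45-positive cells, Itgb2 was 44.1-fold lower (-5.46 ± 0.71, adjusted p = 0.00263, limma) in passage-8 cells and 67.7-fold lower (-6.08 ± 0.70, adjusted p = 0.00195, limma) in CD45-negative cells. In CD45-positive cells it was 75.1-fold higher (6.23 ± 0.71, adjusted p = 0.00081, limma) than in ventricle. These 3 calls held without any 1 array, and the CD45-negative difference from CD45-positive cells was -4.89 without the first CD45-negative array and -7.28 without the second. None of the differences among the other 3 groups passed. Passage-8 minus CD45-negative cells gave 0.62 ± 0.70 (adjusted p = 0.561, limma), passage-8 cells minus ventricle 0.77 ± 0.71 (adjusted p = 0.407, limma) and CD45-negative cells minus ventricle 0.15 ± 0.70 (adjusted p = 0.874, limma). That last value rests on which CD45-negative array is read, since it was 1.34 without the first and -1.05 without the second. Passage-8 minus CD45-negative cells was likewise -0.58 without the first and 1.82 without the second. Passage-8 cells minus ventricle was under the minimum difference, though both passage-8 arrays lay above both ventricle arrays. Its standard error takes in the spread of the CD45-negative arrays (SD 1.69, beside 0.11 in passage-8 cells and 0.28 in ventricle).

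**Figure D1:**
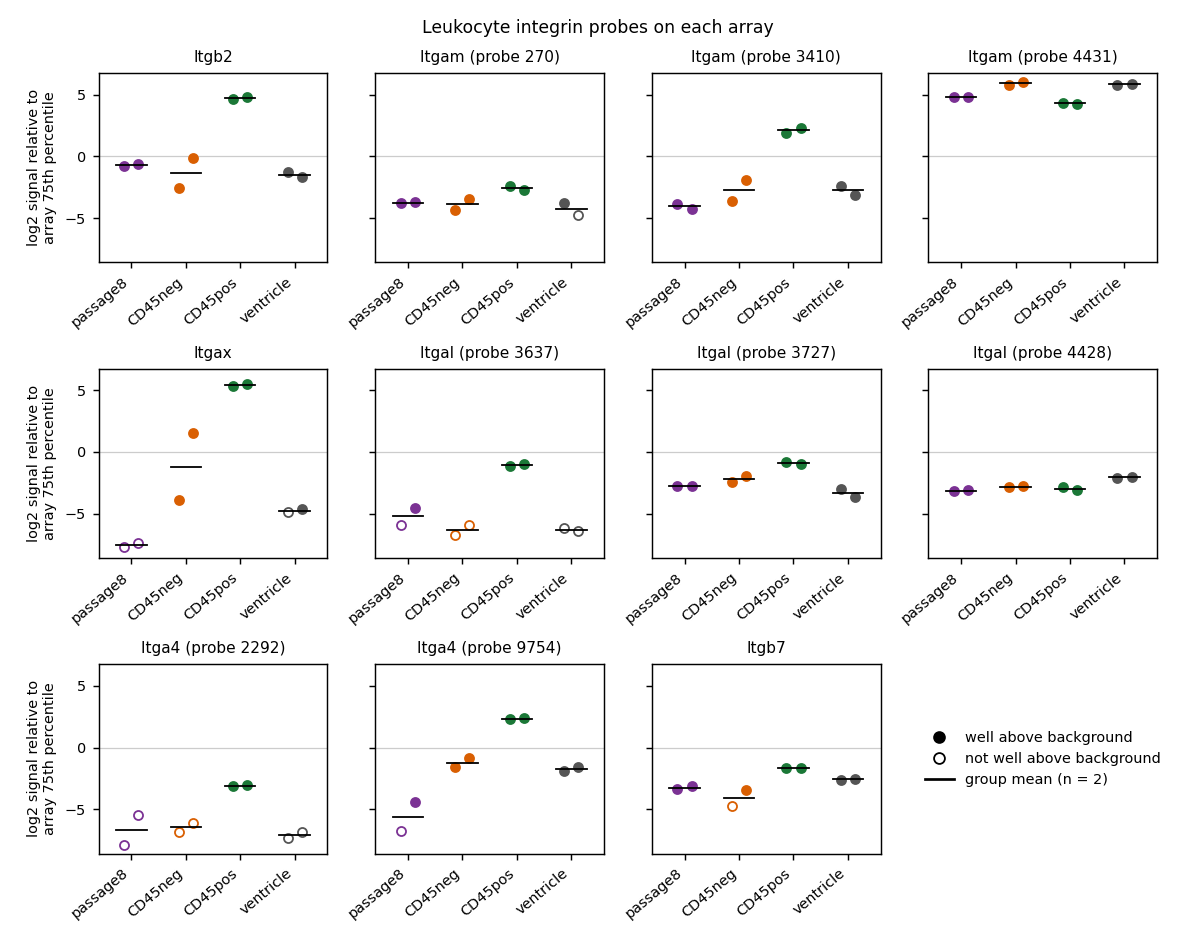
Log2 signal relative to the array's 75th percentile (y axis) for each of the 11 probes on each array, by group (x axis); hollow points are not well above background and bars are means of 2 arrays. The CD45-positive arrays are the highest for 9 probes, the lowest for Itgam probe 4431, and within the range of the other groups for Itgal probe 4428.

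Itgax, the CD11c alpha chain, spanned the widest range of the 11 probes. It read -7.70 and -7.40 in passage-8 cells, -3.94 and 1.55 in CD45-negative cells, 5.39 and 5.48 in CD45-positive cells, against -4.89 and -4.65 in ventricle. Neither passage-8 array and only 1 of 2 ventricle arrays was well above background, and the CD45-negative arrays lay 5.49 log2 units apart. Relative to CD45-positive cells, Itgax was at least 2040-fold lower (adjusted p = 0.00204, limma) in passage-8 cells, a bound set by the background, and 99.2-fold lower (-6.63 ± 1.55, adjusted p = 0.0199, limma) in CD45-negative cells. In CD45-positive cells it was 1184-fold higher (10.21 ± 1.56, adjusted p = 0.00261, limma) than in ventricle. Passage-8 cells were at least 20.6-fold lower (adjusted p = 0.0304, limma) than CD45-negative cells.

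The size of the Itgax differences that involve CD45-negative cells depended on the array. CD45-negative minus CD45-positive cells was -3.89 without the first CD45-negative array and -9.38 without the second. It did not pass without the first or the second CD45-positive array (adjusted p = 0.0916 and 0.122, limma). Passage-8 minus CD45-negative cells passed without the first (-9.10) or second (-3.61) CD45-negative array, and was lost without any 1 of the other 6 arrays (adjusted p from 0.0587 to 0.129, limma). CD45-negative cells minus ventricle did not pass at 3.58 ± 1.55 (adjusted p = 0.0973, limma). That value was 6.32 without the first CD45-negative array and 0.83 without the second.

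Itgam, the CD11b alpha chain, was read by 3 probes that did not move together. Probe 3410 read -3.82 and -4.30 in passage-8 cells, -3.63 and -1.88 in CD45-negative cells, 1.88 and 2.34 in CD45-positive cells, against -2.42 and -3.09 in ventricle. The CD45-positive arrays were highest, as for Itgb2, and the CD45-negative arrays overlapped with ventricle. Set against CD45-positive cells, probe 3410 was 72-fold lower (-6.17 ± 0.58, adjusted p = 0.000922, limma) in passage-8 cells and 29.2-fold lower (-4.87 ± 0.58, adjusted p = 0.00211, limma) in CD45-negative cells. CD45-positive cells were 29.2-fold higher (4.87 ± 0.58, adjusted p = 0.00099, limma) than ventricle. These 3 calls held without any 1 array, and the CD45-negative one was -3.99 and -5.74 without the first and second CD45-negative array. Passage-8 minus CD45-negative cells did not pass at -1.30 ± 0.58 (adjusted p = 0.153, limma), but was -2.18 without the first CD45-negative array. Passage-8 cells minus ventricle did not pass at -1.30 ± 0.58 (adjusted p = 0.111, limma), and passed without the first or the second CD45-negative array (adjusted p = 0.0209 and 0.0209, limma).

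Itgam probe 270 was dim and also highest in CD45-positive cells, in a narrower range. It read -3.79 and -3.70 in passage-8 cells, -4.34 and -3.44 in CD45-negative cells, -2.40 and -2.69 in CD45-positive cells, against -3.76 and -4.77 in ventricle, where the second array was not well above background. Of its differences only that of CD45-positive cells from ventricle passed, at 3.29-fold higher (1.72 ± 0.42, adjusted p = 0.0167, limma). It was lost without the first CD45-positive, the second CD45-positive or the second ventricle array (adjusted p = 0.0898, 0.0686 and 0.0815, limma). CD45-negative minus CD45-positive cells missed the threshold at -1.34 ± 0.42 (adjusted p = 0.0503, limma). It passed without the second CD45-negative array (-1.79) or without either ventricle array (adjusted p = 0.0358 each time, limma). Passage-8 minus CD45-positive cells missed it at -1.19 ± 0.42 (adjusted p = 0.0775, limma), and passed without either CD45-negative array (adjusted p = 0.0463 each time, limma).

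Itgam probe 4431, which holds the CA run, went the other way. It read 4.79 and 4.82 in passage-8 cells, 5.83 and 6.06 in CD45-negative cells, 4.31 and 4.29 in CD45-positive cells, against 5.81 and 5.90 in ventricle. The CD45-positive arrays were the lowest, with passage-8 cells next. CD45-negative cells were 3.12-fold higher (1.64 ± 0.17, adjusted p = 0.00143, limma) than CD45-positive cells, and CD45-positive cells were 2.94-fold lower (-1.56 ± 0.17, adjusted p = 0.000752, limma) than ventricle. Passage-8 cells were 2.08-fold lower (-1.05 ± 0.18, adjusted p = 0.00386, limma) than ventricle, and these 3 calls held without any 1 array. Passage-8 cells were also 2.2-fold lower (-1.14 ± 0.18, adjusted p = 0.00732, limma) than CD45-negative cells, a call lost without the first or second passage-8 array (adjusted p = 0.0799 and 0.0772, limma). Passage-8 minus CD45-positive cells gave 0.50 ± 0.18 (adjusted p = 0.0762, limma) and did not pass.

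The disagreement between the Itgam probes was tested within arrays, as the log2 difference between 2 probes on an array compared between groups. Probe 3410 minus probe 4431 was -8.61 and -9.11 in passage-8 cells, -9.46 and -7.94 in CD45-negative cells and -2.43 and -1.95 in CD45-positive cells, against -8.24 and -8.99 in ventricle. The CD45-positive arrays stood apart from all others. The unequal change relative to CD45-positive cells was -6.67 ± 0.55 (adjusted p = 0.00349, limma) in passage-8 cells and -6.51 ± 0.54 (adjusted p = 0.00357, limma) in CD45-negative cells. Probe 270 minus probe 3410, neither with a CA run over 4 bases, also changed unequally, by 3.53 ± 0.40 (adjusted p = 0.00525, limma) in CD45-negative relative to CD45-positive cells. Over all 7 pairs of probes for 1 member, 6 of 7 tested changed unequally in passage-8 against CD45-positive cells, beside 6.08% of all such pairs on the array, and 6 of 7 in CD45-negative against CD45-positive cells, beside 14%. In passage-8 against CD45-negative cells 0 of 4 tested passed, beside 13.1% of all pairs (limma; 2 of the 4 had an unadjusted p under 0.05). Against ventricle, 2 of 4 changed unequally in passage-8 cells, 1 of 4 in CD45-negative cells and 6 of 7 in CD45-positive cells, beside 16.1%, 23.6% and 15.1% of all pairs. Both probes were well above background on at least 1 array of each group for 5 of the 6 in passage-8 and 4 of the 6 in CD45-negative against CD45-positive cells, and for 4 of the 6 in CD45-positive cells against ventricle. In the other pairs 1 probe has only a bound in a group, so the size of its unequal change is not measured. The counts also depended on single arrays. The 6 of CD45-negative against CD45-positive cells became 0 without the second CD45-positive array, which ended the call for probes 3410 and 4431 too, and the 6 of passage-8 against CD45-positive cells 3 and 3 without the first and second. The 2 of passage-8 cells against ventricle became 0 without the second passage-8 array, 0 without the second ventricle array, and 1 without the first passage-8 or either CD45-positive array. The 0 of passage-8 against CD45-negative cells became 1 without the first CD45-negative or either ventricle array.

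Other probes with a CA run were set beside Itgam probe 4431, a choice made after its values were seen, so no test is given for the set. The array holds 24 probes with a CA run of 20 bases or more, and Itgam probe 4431 is the only one of the 11 leukocyte integrin probes among them. In CD45-negative against CD45-positive cells 23 of the other 23 were higher, with a median log2 difference of 2.25 and a range of 1.83 to 2.55, so the 1.64 of Itgam was the lowest of the 24. In passage-8 against CD45-positive cells 19 of the 23 were higher (median 1.14, range 0.83 to 1.40), beside 0.50 for Itgam. In passage-8 against CD45-negative cells 19 were lower (median -1.09), beside -1.14 for Itgam. In CD45-positive cells against ventricle 23 were lower (median -2.18, range -2.74 to -1.76), beside -1.56 for Itgam. CD45-negative cells against ventricle gave a median of 0.05, beside 0.09 for Itgam. The medians of all probes tested in these 5 comparisons lay between -0.04 and 0.20. Probes with a run of TG, the complement of CA, moved the other way in the 3 comparisons with CD45-positive cells: of 52, 26 were lower in passage-8 cells (median -1.0) and 38 in CD45-negative cells (median -1.24) relative to CD45-positive cells, and 34 were higher in CD45-positive cells than in ventricle (median 1.15). In the other 3 comparisons 0 of the 52 passed in limma, with medians of 0.21 in passage-8 against CD45-negative cells, 0.11 in passage-8 cells against ventricle and -0.11 in CD45-negative cells against ventricle. The part of the repeat in the Itgam value was not tested.

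**Figure D2:**
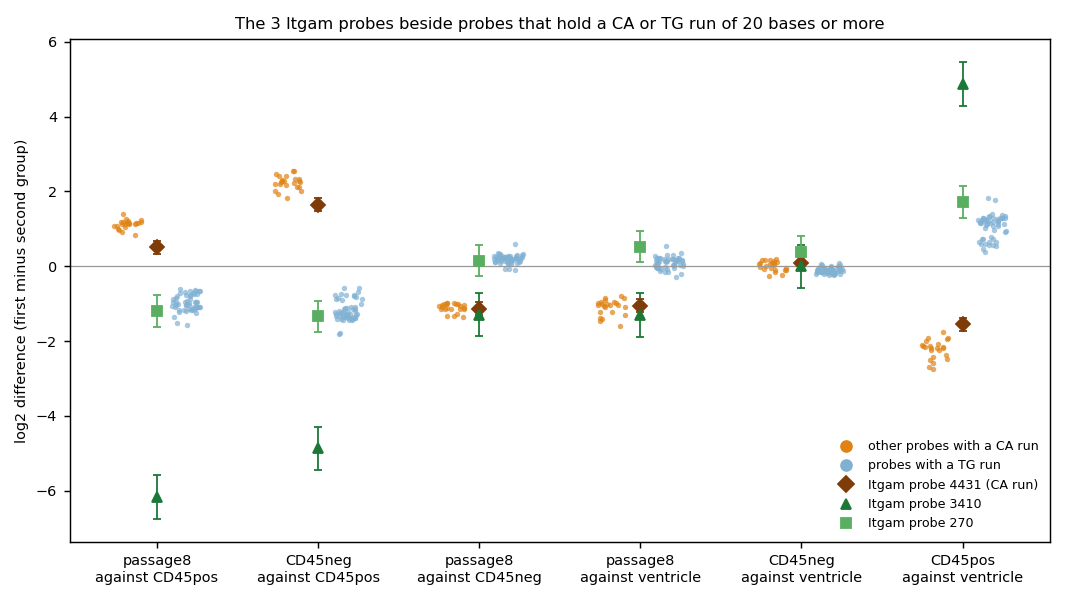
Log2 difference, first minus second group (y axis), in 6 comparisons (x axis) for the 3 Itgam probes with standard errors, for the 23 other probes with a CA run and for 52 probes with a TG run, 1 point per probe. Itgam probe 4431 has the same sign as the median of the CA-run probes in each comparison, and probe 3410 lies far from them in the 3 that involve CD45-positive cells.

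Itgal, the LFA-1 alpha chain, also had probes of unlike range. Probe 3637 read -5.89 and -4.55 in passage-8 cells, -6.74 and -5.92 in CD45-negative cells, -1.16 and -1.0 in CD45-positive cells, against -6.20 and -6.40 in ventricle. Outside CD45-positive cells only the second passage-8 array was well above background. With CD45-positive cells as the base, it was 17.6-fold lower (-4.14 ± 0.48, adjusted p = 0.00178, limma) in passage-8 cells and at least 9.05-fold lower (adjusted p = 0.001, limma) in CD45-negative cells. CD45-positive cells were at least 14.7-fold higher (adjusted p = 0.000367, limma) than ventricle, and these calls held without any 1 array.

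Itgal probe 3727, whose window begins after the end of that of probe 3637, read -2.80 and -2.78 in passage-8 cells, -2.45 and -1.91 in CD45-negative cells, -0.83 and -0.97 in CD45-positive cells, against -2.97 and -3.69 in ventricle. The CD45-positive arrays were again highest, above both CD45-negative arrays. Relative to CD45-positive cells, it was 3.71-fold lower (-1.89 ± 0.30, adjusted p = 0.00567, limma) in passage-8 cells and 2.43-fold lower (-1.28 ± 0.30, adjusted p = 0.02, limma) in CD45-negative cells. CD45-positive cells were 5.38-fold higher (2.43 ± 0.30, adjusted p = 0.00117, limma) than ventricle, and CD45-negative cells 2.21-fold higher (1.15 ± 0.30, adjusted p = 0.019, limma) than ventricle. The difference of CD45-negative from CD45-positive cells was lost without the first CD45-negative, the first CD45-positive or the second CD45-positive array (adjusted p = 0.0549, 0.113 and 0.119, limma). That of CD45-negative cells from ventricle was lost without the second CD45-negative or the second ventricle array (adjusted p = 0.0676 and 0.0857, limma).

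Itgal probe 4428, designed to a clone, was nearly level. It read -3.17 and -3.10 in passage-8 cells, -2.83 and -2.79 in CD45-negative cells, -2.84 and -3.10 in CD45-positive cells, against -2.10 and -2.03 in ventricle. The cell groups lay close together and ventricle was highest, unlike on the other Itgal probes. Only passage-8 cells against ventricle passed, at 2.1-fold lower (-1.07 ± 0.18, adjusted p = 0.00395, limma). CD45-positive cells minus ventricle, at -0.90 ± 0.18, was under the minimum difference and passed without the first CD45-positive array (-1.03). Within arrays, probe 3727 minus probe 4428 changed unequally by -1.44 ± 0.31 (adjusted p = 0.027, limma) in CD45-negative relative to CD45-positive cells and by 3.33 ± 0.31 (adjusted p = 0.00213, limma) in CD45-positive cells relative to ventricle.

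Itga4, the alpha4 chain of VLA-4 and, with Itgb7, of a gut-homing integrin, separated passage-8 from CD45-negative cells on probe 9754 alone. That probe entered the comparison through the CD45-negative arrays only, so its direction there follows from the filter. Probe 2292 was not well above background in either group and was not tested there. Probe 9754 read -6.80 and -4.44 in passage-8 cells, -1.60 and -0.86 in CD45-negative cells, 2.28 and 2.42 in CD45-positive cells, against -1.88 and -1.55 in ventricle. CD45-positive arrays were highest, passage-8 arrays lowest, and CD45-negative cells and ventricle overlapped in between. Passage-8 cells were 252-fold lower (-7.98 ± 0.72, adjusted p = 0.000804, limma) than CD45-positive cells, 21-fold lower (-4.39 ± 0.71, adjusted p = 0.00853, limma) than CD45-negative cells and 15-fold lower (-3.90 ± 0.72, adjusted p = 0.00548, limma) than ventricle. These 3 calls held without any 1 array, though the first passage-8 array was not well above background. CD45-negative cells, relative to CD45-positive cells, were 12-fold lower (-3.58 ± 0.71, adjusted p = 0.0118, limma), a call lost without the first or second CD45-positive array (adjusted p = 0.0643 and 0.0931, limma). CD45-positive cells were 16.8-fold higher (4.07 ± 0.72, adjusted p = 0.00471, limma) than ventricle, and CD45-negative cells minus ventricle gave 0.49 ± 0.72 (adjusted p = 0.598, limma).

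Itga4 probe 2292, which crosses an intron, was well above background in CD45-positive cells only. It read -7.91 and -5.45 in passage-8 cells, -6.83 and -6.16 in CD45-negative cells, -3.11 and -3.06 in CD45-positive cells, against -7.33 and -6.87 in ventricle. The CD45-positive arrays did not overlap with the others. Relative to CD45-positive cells, it was at least 5.54-fold lower (adjusted p = 0.0141, limma) in passage-8 cells and at least 2.26-fold lower (adjusted p = 0.0158, limma) in CD45-negative cells, while CD45-positive cells were at least 3.67-fold higher (adjusted p = 0.00577, limma) than ventricle. The passage-8 call was lost without the first or second CD45-positive array (adjusted p = 0.0697 and 0.0847, limma). The CD45-negative call was lost without the first CD45-positive, the second CD45-positive or the first CD45-negative array (adjusted p = 0.0797, 0.108 and 0.0588, limma).

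Itgb7, the beta partner of Itga4 and Itgae, was dim. It read -3.40 and -3.11 in passage-8 cells, -4.73 and -3.44 in CD45-negative cells, -1.68 and -1.67 in CD45-positive cells, against -2.63 and -2.54 in ventricle. CD45-positive arrays were highest and ventricle next, and the first CD45-negative array was not well above background. Relative to CD45-positive cells, Itgb7 was 2.99-fold lower (-1.58 ± 0.41, adjusted p = 0.0291, limma) in passage-8 cells and 5.31-fold lower (-2.41 ± 0.40, adjusted p = 0.00645, limma) in CD45-negative cells. CD45-negative cells were also 2.83-fold lower (-1.50 ± 0.40, adjusted p = 0.0208, limma) than ventricle. CD45-positive cells minus ventricle did not pass at 0.91 ± 0.41 (adjusted p = 0.112, limma). The passage-8 call was lost without any 1 of the CD45-positive, passage-8 or ventricle arrays (adjusted p from 0.0545 to 0.141, limma). The CD45-negative call, at -1.76 and -3.05 without the first and second CD45-negative array, was lost without the second CD45-positive array (adjusted p = 0.0643, limma). CD45-negative cells against ventricle no longer passed without the first CD45-negative array (-0.86) or without the first or second ventricle array (adjusted p = 0.079 and 0.0985, limma). Passage-8 minus CD45-negative cells, 0.83 ± 0.40 (adjusted p = 0.187, limma), was 1.48 without the second CD45-negative array.

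**Figure D3:**
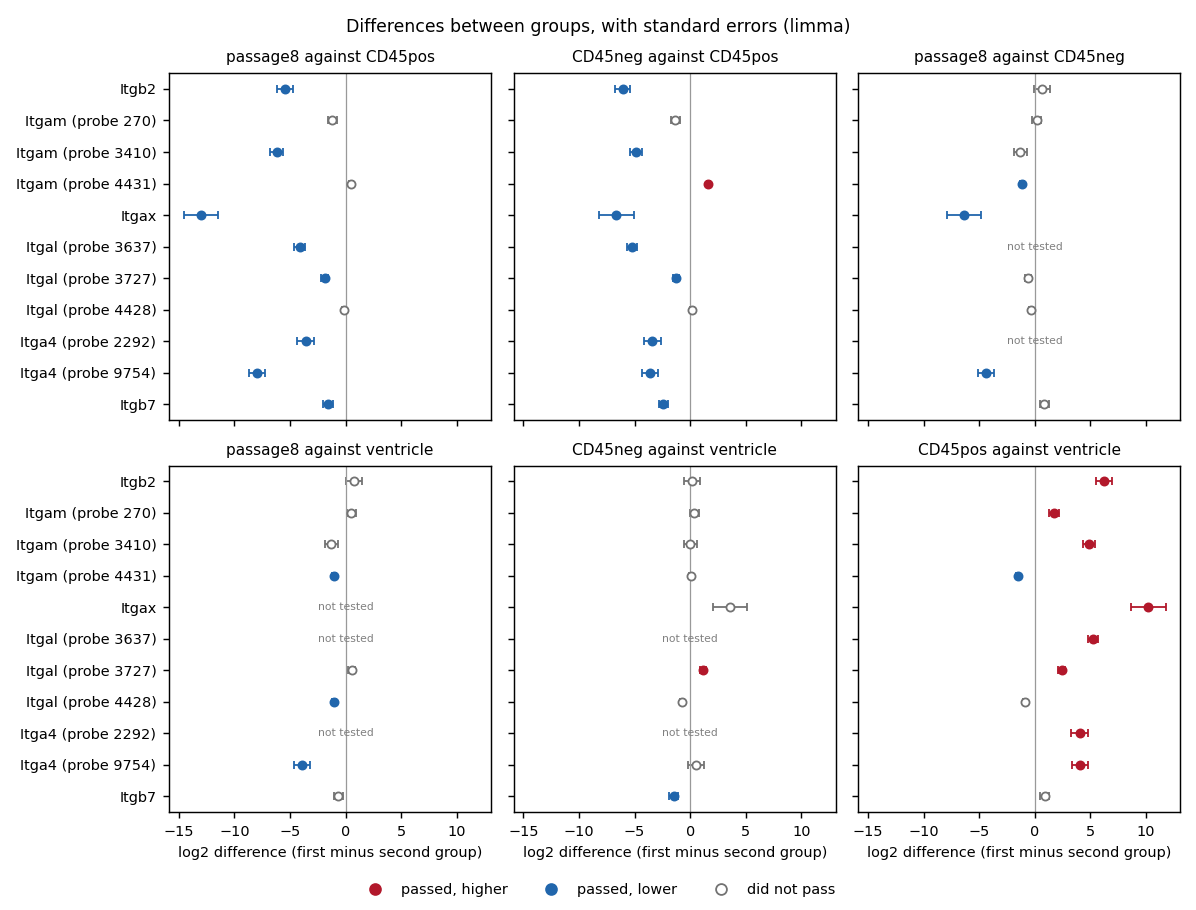
Log2 difference, first minus second group, with its standard error (x axis) for each probe (y axis) in 6 comparisons; filled points passed, hollow points did not, and probes not tested are marked so. Of 11 probes, 8 are lower in passage-8 and in CD45-negative cells than in CD45-positive cells, and 8 are higher in CD45-positive cells than in ventricle.

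Counted over probes, passage-8 against CD45-positive cells had 8 of 11 lower and 0 higher, beside 14.3% higher and 10.7% lower (25% in either direction) among the 33966 probes tested. The 8 left out Itgam probes 270 and 4431 and Itgal probe 4428, and came from all 6 genes. CD45-negative against CD45-positive cells had 8 of 11 lower and 1 higher, Itgam probe 4431, beside 12.3% higher and 12.3% lower (24.5% in either direction) among the 30282 probes tested. Of the 8 in passage-8 cells, 4 (Itgax, Itga4 probes 9754 and 2292 and Itgal probe 3637) entered through the CD45-positive arrays alone, as did 3 of the 9 in CD45-negative cells (Itgb7, Itgal probe 3637 and Itga4 probe 2292), so the direction of these calls follows from the filter. The median log2 difference over the 11 probes was -3.59 in passage-8 and -3.41 in CD45-negative against CD45-positive cells, beside 0.20 and 0.15 over all probes tested. The CD45-negative count of 9 was 5 and 4 without the first and second CD45-positive array. Both comparisons share the CD45-positive arrays.

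Passage-8 against CD45-negative cells had 3 of 9 lower and 0 higher, beside 10.5% higher and 7.6% lower (18% in either direction) among the 32927 probes tested. The 3 were Itgam probe 4431 and, entering through the CD45-negative arrays alone and so with a direction that follows from the filter, Itgax and Itga4 probe 9754. The median over the 9 was -0.61, beside 0.04 over all probes tested. The count was 1 and 1 without the first and second passage-8 array, and 4 and 5 without the first and second CD45-negative array. Against ventricle, passage-8 cells had 3 of 8 lower and 0 higher, Itga4 probe 9754, Itgam probe 4431 and Itgal probe 4428, beside 21.3% higher and 18.8% lower (40.1% in either direction) among the 34855 probes tested. The first of these entered through the ventricle arrays alone, as did Itgb7 in the next comparison. CD45-negative cells against ventricle had 1 of 9 higher, Itgal probe 3727, and 1 lower, Itgb7, beside 20.1% higher and 21.2% lower (41.3% in either direction) among the 31549 probes tested. That count of 2 was 3 without the first CD45-negative array, 1 without the first ventricle array and 0 without the second. CD45-positive cells against ventricle had 8 of 11 higher and 1 lower, Itgam probe 4431, beside 18.4% higher and 20.7% lower (39.1% in either direction) among the 32870 probes tested. Of the 8, Itgax, Itgam probe 270, Itgal probe 3637 and Itga4 probe 2292 entered through the CD45-positive arrays alone.

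Macrophages carry these integrins, and their markers were set beside the members. Of 9 macrophage markers (Csf1r, Adgre1, Cd68, Mrc1, Mertk, Fcgr1, C1qa, Lyz2 and Cd14), 9 were lower in passage-8 and 9 in CD45-negative cells relative to CD45-positive cells (median log2 differences -7.73 and -6.71), and 8 were higher in CD45-positive cells than in ventricle. Among all probes tested, 10.7% and 12.3% were lower and 18.4% higher. C1qa and Adgre1 in the passage-8 count, and Fcgr1 in the other 2, entered through the CD45-positive arrays alone. The direction of these calls thus follows from the filter. The 9 of CD45-negative cells became 3 without the second CD45-positive array, and the 8 became 4 to 5 without any 1 CD45-positive or ventricle array. Their summed level, in multiples of the array's 75th percentile, was 7.67 to 7.77 in passage-8 cells, 3.76 to 31.6 in CD45-negative cells, 749 to 765 in CD45-positive cells, against 33.4 to 40.4 in ventricle. The higher of the CD45-negative arrays is the second, which also had the higher Itgax and Itgb2. C1qa and Adgre1 were not well above background in passage-8 cells. Neutrophil markers summed to 3.95 to 4.6 in passage-8 cells, 4.41 to 9.07 in CD45-negative cells, 12.3 to 13.9 in CD45-positive cells, against 7.58 to 12.3 in ventricle, with Cxcr2, Retnlg and S100a9 not well above background in CD45-positive cells. Of the markers of other blood cells, 4 of 7 for T cells, 4 of 6 for dendritic cells, 3 of 6 for natural killer cells, 1 of 5 for B cells and 2 of 7 for mast cells were well above background on both CD45-positive arrays. T cell markers summed to 6.67 to 7.81 in passage-8 cells, 7.45 to 9.51 in CD45-negative cells, 8.72 to 9.58 in CD45-positive cells, against 11.7 to 17.8 in ventricle, and dendritic cell markers to 0.531 to 0.562 in passage-8 cells, 2.53 to 8.49 in CD45-negative cells, 8.6 to 9.14 in CD45-positive cells, against 14.2 to 17.3 in ventricle. Both sums were highest in ventricle. Natural killer cell markers summed to 2.43 to 2.61 in passage-8 cells, 2.93 to 3.49 in CD45-negative cells, 4.86 to 5.09 in CD45-positive cells, against 2.4 to 3.14 in ventricle. Not well above background on either CD45-positive array were Cd3d, Cd3g and Cd8a of T cells, Ccr7 and Cd209a of dendritic cells, Eomes, Klrb1c and Ncr1 of natural killer cells, Cd79b, Ms4a1 and Pax5 of B cells and Cma1, Cpa3, Fcer1a and Ms4a2 of mast cells. Fibroblast markers summed to 1056 to 1063 in passage-8 cells, 1315 to 1439 in CD45-negative cells, 595 to 624 in CD45-positive cells, against 276 to 427 in ventricle. Of the 8 fibroblast markers, 2 were higher and 2 lower in passage-8 against CD45-positive cells. In CD45-negative against CD45-positive cells 5 were higher and 0 lower, and in passage-8 against CD45-negative cells 0 were higher and 4 lower. The shares of all probes tested were 14.3%, 12.3% and 10.5% higher and 10.7%, 12.3% and 7.6% lower, in that order. Of 5 mesothelial markers, 3 were higher in passage-8 and 4 lower in CD45-negative cells relative to CD45-positive cells (medians 1.43 and -3.70), and 4 were higher in passage-8 than in CD45-negative cells (median 5.43). They summed to 22.2 to 26.8 in passage-8 cells, 0.764 to 3.59 in CD45-negative cells, 5.73 to 6.72 in CD45-positive cells, against 6.03 to 6.99 in ventricle, so passage-8 cells had the most. Upk1b and Upk3b entered both counts of 4 through the brighter group alone, so their direction there follows from the filter. Among all probes tested, 14.3%, 12.3% and 10.5% passed in the 3 directions counted. The 3 of passage-8 against CD45-positive cells became 1 without any 1 array of those groups. Of 6 endothelial markers, 3 were lower in passage-8 and 0 in CD45-negative cells relative to CD45-positive cells (medians -2.55 and -0.09), and 4 were lower in CD45-positive cells than in ventricle. They summed to 6.79 to 6.85 in passage-8 cells, 13.5 to 20.6 in CD45-negative cells, 11.5 to 13.3 in CD45-positive cells, against 42.1 to 50.5 in ventricle. Of the 3 lower in passage-8 cells, Cdh5 and Emcn entered through the CD45-positive arrays alone, so their direction follows from the filter. Among all probes tested, 10.7%, 12.3% and 20.7% were lower in these comparisons. The part of the cell make-up in the integrin values was not tested.

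Transcripts that act behind the beta2 integrins were lower where the members were. Of 16 signalling genes downstream of beta2, 16 were lower in passage-8 cells (median -6.26) and 15 in CD45-negative cells (median -4.85) relative to CD45-positive cells, with 0 higher in either, and 16 were higher in CD45-positive cells than in ventricle (median 3.41). Over all probes tested, 10.7% and 12.3% were lower (medians 0.20 and 0.15) and 18.4% higher (median -0.04). Well above background on both arrays were 10 of the 16 in passage-8 cells and 11 in CD45-negative cells, so 6 and 5 of the lower calls entered through the CD45-positive arrays alone and their direction follows from the filter. With 1 array left out, 14 to 16 were lower in passage-8 and 10 to 15 in CD45-negative cells relative to CD45-positive cells, and the 16 above ventricle became 10 without the second CD45-positive and 8 without the second ventricle array. The adaptor Tyrobp, which carries an activating motif read by Syk, was 13794-fold lower (-13.75 ± 1.43, adjusted p = 0.00126, limma) in passage-8 cells and 155-fold lower (-7.27 ± 1.42, adjusted p = 0.0111, limma) in CD45-negative cells. Vav1, an exchange factor for Rac, was at least 1373-fold lower (adjusted p = 0.00263, limma) in passage-8 cells, and the blood cell GTPase Rac2 was 651-fold lower (-9.35 ± 0.99, adjusted p = 0.00133, limma). Tyrobp and Rac2 were well above background on 1 of 2 passage-8 arrays. Syk, a kinase near the head of this pathway, was 99.4-fold lower (-6.63 ± 0.25, adjusted p = 0.000124, limma) in passage-8 cells and 13.8-fold lower (-3.78 ± 0.24, adjusted p = 0.000535, limma) in CD45-negative cells. Without the first and second CD45-negative array, the CD45-negative difference was -5.16 and -9.39 for Tyrobp and -3.50 and -4.07 for Syk, and that of Tyrobp was lost without the first or second CD45-positive array (adjusted p = 0.0634 and 0.0846, limma). In passage-8 against CD45-negative cells, Vav3 was higher and Tyrobp, Syk and Lyn were lower of 11 tested (median -1.09), and the lower count was 12 without the first CD45-negative and 1 without the first passage-8 array. Tyrobp entered there through the CD45-negative arrays alone, so its direction follows from the filter. The shares of all probes tested were 10.5% higher and 7.6% lower. Against ventricle, 9 of 14 were lower and Ptk2b higher in passage-8 cells (median -2.93), and Pik3cg and Syk were lower and Ptk2b and Pik3cd higher of 14 in CD45-negative cells (median -1.38). Those 9 became 4 without the first passage-8 or either ventricle array, and the 2 lower in CD45-negative cells 10 without the second CD45-negative array and 1 without the first, either CD45-positive or the first ventricle array.

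Genes that switch integrins on were split. Of the activation list, Vcl, Fermt2 and Tln2 were higher and Fyb, Fermt3, Cyth1, Apbb1ip and Rassf5 lower of 15 tested in passage-8 against CD45-positive cells (median -0.78), and Fermt2, Vcl and Tln2 were higher and Fermt3, Fyb, Cyth1, Skap2 and Rassf5 lower of 14 in CD45-negative against CD45-positive cells (median -0.38). Among all probes tested, 14.3% were higher and 10.7% lower in the first comparison, and 12.3% and 12.3% in the second. Fermt3, the kindlin of blood cells, which binds the beta2 tail, read -4.34 and -4.38 in passage-8 cells, -6.66 and -2.86 in CD45-negative cells, 2.77 and 2.88 in CD45-positive cells, against -1.94 and -2.73 in ventricle. It was 145-fold lower (-7.18 ± 1.10, adjusted p = 0.00483, limma) in passage-8 and 192-fold lower (-7.59 ± 1.10, adjusted p = 0.00399, limma) in CD45-negative cells, relative to CD45-positive cells. The CD45-negative value was -5.69 and -9.48 without the first and second CD45-negative array, and the first was not well above background for Fermt3. Fermt3 and Fyb in CD45-negative cells, and Fyb in passage-8 cells, entered through the CD45-positive arrays alone. The direction of these calls thus follows from the filter. Passage-8 minus CD45-negative cells for Fermt3 was -1.49 without the first and 2.30 without the second CD45-negative array. Its relative Fermt2, a kindlin of non-blood cells, was 2.48-fold higher (1.31 ± 0.17, adjusted p = 0.0028, limma) in passage-8 and 3.83-fold higher (1.94 ± 0.16, adjusted p = 0.000859, limma) in CD45-negative cells. Tln1, the talin that links integrin tails to actin, read 5.45 and 5.42 in passage-8 cells, 6.06 and 6.20 in CD45-negative cells, 6.33 and 6.29 in CD45-positive cells, against 4.81 and 4.65 in ventricle, and did not pass between any of the cell groups. In passage-8 against CD45-negative cells, Skap2 was higher and Apbb1ip lower of 14 (median -0.11), and neither passed without either passage-8 array, while 3 were lower without the first CD45-negative array and 2 higher and 2 lower without the second. The shares of all probes tested were 10.5% higher and 7.6% lower there. Against ventricle, 5 were higher and 4 lower of 15 in passage-8 cells, 5 and 3 of 15 in CD45-negative cells, and 7 and 3 of 15 in CD45-positive cells, with Fermt3, Fyb, Apbb1ip and Skap2 highest in the last. The shares of all probes tested were 21.3%, 20.1% and 18.4% higher and 18.8%, 21.2% and 20.7% lower against ventricle, in that order. Of 6 genes that restrain activation, Cyth4 was lower in passage-8 cells, and Cyth4 lower and Flna (filamin A) higher in CD45-negative cells, relative to CD45-positive cells (medians -0.50 and -0.36).

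Integrin chains that are not members were described alongside. Of 15 other subunits tested in passage-8 against CD45-positive cells, Itga2b, Itga3, Itgb4 and Itga6 were higher and Itga8, Itga9 and Itgb3 lower (median 0.81). Of 16 in CD45-negative against CD45-positive cells, Itgb8, Itga6, Itgb4, Itga1 and Itgav were higher and 0 lower (median 0.52). Itgb8 entered there through the CD45-negative arrays alone, so its direction follows from the filter. Among all probes tested, 14.3% were higher and 10.7% lower in the first comparison, and 12.3% and 12.3% in the second. The 5 higher became 1 without either CD45-positive and 3 without the first CD45-negative array, and the 3 lower in passage-8 cells 1 without either CD45-positive or the second passage-8 array. Itgb1, the other beta partner of Itga4, read 3.13 and 3.05 in passage-8 cells, 3.75 and 3.72 in CD45-negative cells, 3.26 and 3.40 in CD45-positive cells, against 2.08 and 2.24 in ventricle. Its difference from CD45-positive cells was -0.24 ± 0.17 (adjusted p = 0.344, limma) in passage-8 cells and 0.41 ± 0.17 (adjusted p = 0.103, limma) in CD45-negative cells. Itgad, an alpha chain that also pairs with beta2, and Itgae, the alpha partner of Itgb7, were not well above background on either CD45-positive array, while Itgad was so on both ventricle arrays. In passage-8 against CD45-negative cells, Itga2b, Itga3 and Itga7 were higher and Itga9, Itga8, Itgb8, Itgb3 and Itgb5 lower of 16 (median -0.47, beside 0.04 over all probes tested), and the 5 lower became 2 without either passage-8 array and 3 without the first CD45-negative or either CD45-positive array. Of these subunits, Itga2b, Itga3 and Itgb8 entered through the brighter group alone, so their direction follows from the filter. Among all probes tested, 10.5% were higher and 7.6% lower in passage-8 than in CD45-negative cells. Against ventricle, 7 were higher and 6 lower of 17 in passage-8 cells, 7 and 6 of 18 in CD45-negative cells, and 5 and 6 of 17 in CD45-positive cells. In that order, 1, 3 and 1 of these calls entered through the brighter group alone. The shares of all probes tested were 21.3%, 20.1% and 18.4% higher and 18.8%, 21.2% and 20.7% lower.

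**Figure D4:**
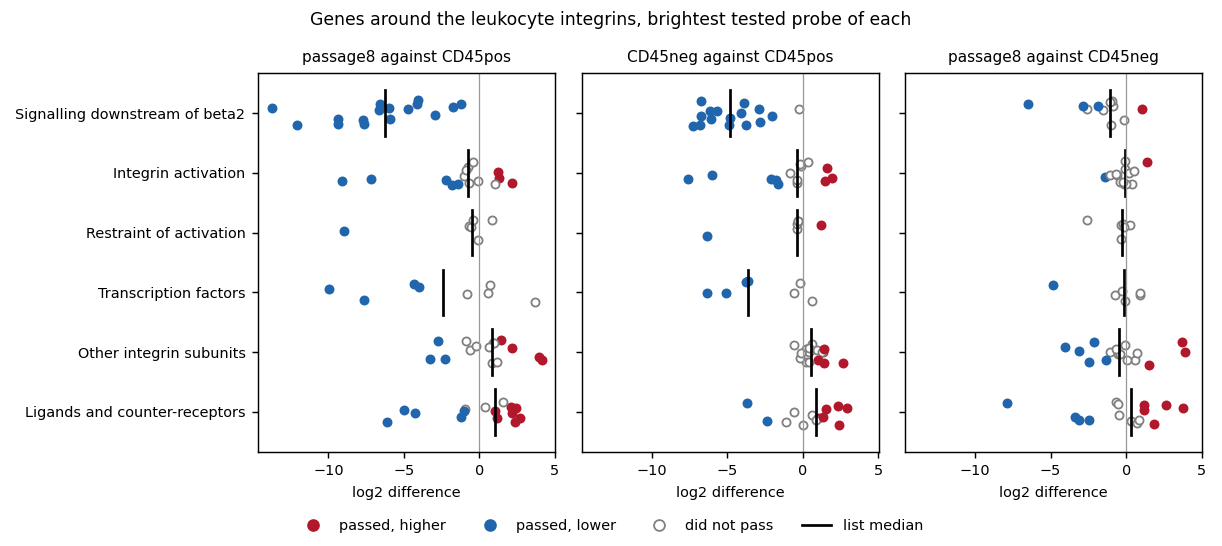
Log2 difference (x axis) of the brightest probe of each gene in 6 lists (y axis) for passage-8 against CD45-positive, CD45-negative against CD45-positive and passage-8 against CD45-negative cells; filled points passed and bars are list medians. Signalling genes downstream of beta2 lie to the left in the panels against CD45-positive cells, with medians of -6.26 and -4.85.

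Ligands moved in both directions. Of the list of ligands and counter-receptors, 7 were higher and 5 lower of 15 tested in passage-8 against CD45-positive cells (median 1.02), and 6 higher and 2 lower of 13 in CD45-negative against CD45-positive cells (median 0.89). Among all probes tested, 14.3% were higher and 10.7% lower in the first comparison, and 12.3% and 12.3% in the second. The 5 lower in passage-8 cells became 3 without the second CD45-positive array, and the 2 in CD45-negative cells 1 without either. Icam1, which LFA-1 and Mac-1 bind, read -0.71 and -0.55 in passage-8 cells, -1.92 and -1.73 in CD45-negative cells, 0.58 and 0.58 in CD45-positive cells, against -2.21 and -2.08 in ventricle. It was highest in CD45-positive cells, as were the chains that bind it on most probes, and was 2.31-fold lower (-1.21 ± 0.18, adjusted p = 0.00432, limma) in passage-8 and 5.27-fold lower (-2.40 ± 0.17, adjusted p = 0.000582, limma) in CD45-negative cells. Vcam1, the counter-receptor of Itga4 with Itgb1, read 6.11 and 6.16 in passage-8 cells, 5.22 and 5.33 in CD45-negative cells, 3.96 and 3.94 in CD45-positive cells, against 0.80 and 1.37 in ventricle. It was highest in passage-8 cells, where Itga4 probe 9754 was lowest and was well above background on 1 of 2 arrays. Itga4 probe 2292 was well above background in CD45-positive cells only, so it does not order the other groups. Relative to CD45-positive cells, Vcam1 was 4.54-fold higher (2.18 ± 0.23, adjusted p = 0.00133, limma) in passage-8 and 2.51-fold higher (1.33 ± 0.22, adjusted p = 0.00676, limma) in CD45-negative cells. Spp1, osteopontin, was 69.5-fold lower (-6.12 ± 0.70, adjusted p = 0.00178, limma) in passage-8 cells and 12.7-fold lower (-3.67 ± 0.70, adjusted p = 0.0102, limma) in CD45-negative cells. Without the second CD45-positive array, the calls of Icam1 in passage-8 cells (adjusted p = 0.0509, limma) and of Vcam1 and Spp1 in CD45-negative cells (adjusted p = 0.0771 and 0.0762, limma) were lost, the last 2 also without the first (adjusted p = 0.0531 and 0.0643, limma). Icam2, an LFA-1 ligand of endothelium, read -4.79 and -4.79 in passage-8 cells, -2.48 and -0.83 in CD45-negative cells, -0.53 and -0.58 in CD45-positive cells, against 4.25 and 4.09 in ventricle, which was thus highest. Between passage-8 and CD45-negative cells, Cdh1, Icam4, C3, Icam1 and F11r were higher and Thy1, Jam2, Icam2 and Spp1 lower of 15, counts that became 2 and 2 without either passage-8 array. Cdh1 and Icam4 entered this comparison, and that with CD45-positive cells, through the passage-8 arrays alone, so their direction follows from the filter. Among all probes tested, 10.5% were higher and 7.6% lower in passage-8 than in CD45-negative cells. Against ventricle, 8 were higher and 3 lower of 15 in passage-8 cells, 7 and 3 of 14 in CD45-negative cells, and 6 and 4 of 14 in CD45-positive cells. In each of these comparisons, 2 of the calls entered through the brighter group alone. The shares of all probes tested against ventricle were, in the same order, 21.3%, 20.1% and 18.4% higher and 18.8%, 21.2% and 20.7% lower.

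Promoters of Itgam and Itgax are shown because Itgax and Itgam probe 3410 were highest on the CD45-positive arrays. Itgam probe 4431 was lowest there. In addition, the blood cell factor PU.1 (Spi1) is known to act on the human counterpart of Itgam and RUNX factors on that of Itgax. Itga4 and Itgb7 were also highest on those arrays, and their promoters are given as motif counts only. RefSeq sequences in build GRCm38.p6 run from 250 bases before to 50 after the gene's start and matched 4 of the 6 genes, Itga4, Itgam, Itgax and Itgb7. Capitals mark GAGGAA or, on the other strand, TTCCTC (a core of PU.1 sites), and TGTGGT or, on the other strand, ACCACA (the RUNX core).
Itgam promoter, chr7:128062390-128062689, plus strand: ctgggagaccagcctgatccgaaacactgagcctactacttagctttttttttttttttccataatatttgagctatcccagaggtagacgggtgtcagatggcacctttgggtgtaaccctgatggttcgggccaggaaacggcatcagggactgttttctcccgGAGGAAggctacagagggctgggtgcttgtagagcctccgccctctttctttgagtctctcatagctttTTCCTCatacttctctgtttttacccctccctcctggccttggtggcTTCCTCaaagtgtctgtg
Itgax promoter, chr7:128129300-128129599, plus strand: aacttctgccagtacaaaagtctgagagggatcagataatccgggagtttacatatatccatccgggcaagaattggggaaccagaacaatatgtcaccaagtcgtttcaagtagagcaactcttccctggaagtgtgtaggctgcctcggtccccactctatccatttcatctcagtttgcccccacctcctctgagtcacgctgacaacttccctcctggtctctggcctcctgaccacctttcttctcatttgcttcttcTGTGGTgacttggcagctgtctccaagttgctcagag

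The Itgam promoter held the first motif 3 times and the Itgax promoter the second 1 time. Itgb7 held the first motif 1 time and Itga4 the second 1 time. Of 32851 mouse promoters of the same length, 28.3% held the first motif and 16.8% the second on either strand. Spi1 itself read -7.82 and -7.51 in passage-8 cells, -6.77 and -5.99 in CD45-negative cells, -0.06 and 0.03 in CD45-positive cells, against -5.73 and -5.71 in ventricle, and was well above background in CD45-positive cells only. It was at least 46.5-fold lower (adjusted p = 0.000124, limma) in passage-8 and at least 18.9-fold lower (adjusted p = 0.000446, limma) in CD45-negative cells relative to CD45-positive cells, and in the last at least 30.8-fold higher (adjusted p = 5.77e-05, limma) than in ventricle. Of the list of factors, Irf8, Spi1, Cebpa and Cebpe were lower of 8 tested in passage-8 cells (median -2.44) and Spi1, Irf8, Cebpe and Cebpa of 7 in CD45-negative cells (median -3.60), with 0 higher. Of these calls, 3 and 2 entered through the CD45-positive arrays alone, and the 4 of CD45-negative cells became 2 without either CD45-positive array. Runx1 did not pass there, at 0.69 ± 0.35 (adjusted p = 0.185, limma) in passage-8 cells and -0.20 ± 0.35 (adjusted p = 0.69, limma) in CD45-negative cells. It was 36.3-fold higher (5.18 ± 0.35, adjusted p = 0.000135, limma) in CD45-positive cells than in ventricle, where Spi1, Runx1, Cebpe, Irf8 and Cebpa were higher of 7 and 0 lower. Beside this, 18.4% of all probes tested were higher and 20.7% lower in that comparison. Spi1 and Cebpe entered it through the CD45-positive arrays alone, so their direction follows from the filter.

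Genes with the pattern most like each probe were taken from 15380 gene names by the root mean square difference in log2 signal over the 8 arrays, after each probe's own mean was removed. For Itgam probe 3410 the nearest were Slc37a2, Tlr13 and Il21r (0.27 to 0.35), and for probe 270 Atp2b1, Tnfrsf9 and Sdccag8 (0.19 to 0.20), of which the Tnfrsf9 probe holds a TG run of 22 bases. For probe 4431 they were Pura, Snap23 and Cd320 (0.09 to 0.17), of which the Pura and Snap23 probes hold CA runs of 16 and 22 bases. Itgax was nearest to Nxpe5, Clec4d and Ccl4 (0.97 to 1.01) and Itgb2 to Amz1, Sirpb1a and Osm (0.42 to 0.55). Itgb7 was nearest to L1cam, Pik3cb and Xylt1 (0.26 to 0.31), Itga4 probe 9754 to Akr1c12, Evi2a and Ptpn6 (0.78 to 0.83) and Itga4 probe 2292 to Cebpe, Trpm2 and Klk1b11 (0.19 to 0.35). Itgal probe 3637 was nearest to Ak8, Galnt3 and Vnn3 (0.26 to 0.34), probe 3727 to Ugt3a1, Rac3 and Olfr549 (0.16 to 0.21) and probe 4428 to Fbxl12os, Slc22a13 and Pde11a (0.08 each). No gene was named for more than 1 Itgam probe.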

How the data were processed

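Total RNA of 8 samples was labelled with Cy3 (200 ng each, per the labels' protocols) and hybridised to Agilent mouse arrays on a single slide with a single scan date, per the file headers. The spot intensity columns of the deposited scanner files come from Feature Extraction 10.7, per the submitters' processing notes, and the processed signal used here is background-subtracted and not scaled between arrays. The authors' deposited value table holds log2 values (column medians 6.087 to 6.094) with a normalization not given in the sources used here, and served as an alternative.

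Control spots (3671 of 62976) and 167 to 248 outlier spots per array were left out, 0 spots were saturated, and spots of 1 probe were averaged. Each array's 75th percentile was subtracted from log2 of the processed signal. Probes were fitted in limma 3.58.1 (R 4.3.3; lmFit and eBayes, two-sided) over all 8 arrays with 1 mean per group, and differences between 2 probes of 1 gene in the same way. The fit was run on simulated data in which each probe had the same spread in all groups. That run cannot show how the unequal spread of these groups affects the calls. A permutation of 2 against 2 arrays reaches no p under 0.333 and was not run. The number of arrays limits the precision.

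A fold for a group with no array well above background is a bound under the main processing. There, each dim array's value was replaced by that array's lowest signal well above background where this was higher. Each list gene is shown by its brightest probe on average over the arrays. Named list genes were up to 4 per direction with the largest difference that passed, or those behind counts of 5 or fewer in at least 1 comparison. Alternatives changed scaling, background correction, filter, threshold, fit and arrays used. For the list genes, leaving out each array was chosen after seeing the data. Members and lists were chosen with earlier results of these data known.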

Additional observations from a re-analysis of the deposited data

How the results depend on the processing

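Counts are given here in the order passage-8 and CD45-negative against CD45-positive cells, passage-8 against CD45-negative cells, then passage-8, CD45-negative and CD45-positive cells against ventricle. The numbers of member probes passing were 8, 9, 3, 3, 2 and 9. Keeping only probes well above background on all 8 arrays removes members by construction and gave 3, 4, 1, 2, 1 and 4, and 1 probe per gene name, also by construction, gave 5, 6, 3, 2, 2 and 5. At an adjusted p under 0.01 the counts were 6, 5, 2, 3, 0 and 8, with array weights 9, 5, 2, 2, 0 and 7, with only the 4 arrays compared 9, 8, 0, 4, 0 and 9 and with no filter on dim probes 7, 7, 2, 3, 0 and 9. Median scaling gave 9, 10, 2, 1, 3 and 10, normexp background correction 8, 6, 3, 1, 0 and 8 and the authors' deposited log2 values 8, 9, 2, 1, 2 and 9. The cause of the changes not made by construction was not tested. Without the Itgam probe with the CA run, an alternative chosen after seeing the data, the counts were 8, 8, 2, 2, 2 and 8.

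Of the 7 probe pairs, 7 changed unequally in at least 1 comparison, 2 with only probes well above background on all 8 arrays, and 6 to 7 with 1 array left out. By comparison they numbered 6, 6, 0, 2, 1 and 6, with array weights 7, 1, 0, 2, 0 and 5, at an adjusted p under 0.01 3, 5, 0, 0, 1 and 5, with normexp 6, 6, 0, 0, 0 and 6, with no filter on dim probes 4, 4, 1, 1, 1 and 6 and with probes well above background on all 8 arrays 2, 2, 0, 1, 1 and 2. Leaving out each array in turn, the counts of probes were 6 to 9, 4 to 10, 1 to 5, 3 to 4, 0 to 3 and 8 to 9. A lone array left in a group is assumed to vary like the other groups. Of the single-probe values recomputed over all alternatives, 1075 kept their side of the threshold (of which 19, never past it, turned sign), 84 fell below it, 26 rose above it and 1 reversed: Itgb2 in CD45-negative cells against ventricle, -1.05 without the second CD45-negative array and 1.34 without the first. Replicate numbers did not pair the samples (correlations of replicate deviations -0.19 to 0.20), and the fit with the replicate block left the counts at 8, 9, 3, 3, 2 and 9. With it, 5 and 5 probe pairs changed unequally in passage-8 and CD45-negative against CD45-positive cells, beside 6 and 6. Over all probes, median scaling moved the median difference of CD45-positive cells from ventricle to 0.24, beside -0.04. It changed the higher and lower calls there to 7489 and 5437, beside 6050 and 6796, in CD45-negative against CD45-positive cells to 2316 and 3874, beside 3717 and 3716, and in passage-8 against CD45-positive cells to 3353 and 3761, beside 4866 and 3634. The calls became 4096 and 2447 with normexp in CD45-negative against CD45-positive cells, beside 3717 and 3716, 1560 and 3996 with normexp in passage-8 against CD45-negative cells, beside 3441 and 2501. Itgal probe 3637 and Itga4 probe 2292 were well above background on 3 and 2 of 8 arrays.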
